A study of Mus musculus with 10 samples.

Results

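The genes described here make and guard proteins in the endoplasmic reticulum (ER): 36 genes, chosen as a list of ER chaperones and folding enzymes, translocation factors, ER-associated degradation factors, and sensors and transcription factors of the unfolded protein response. They are 36 of the 55573 genes in the count table, were matched by mouse gene symbol, and fall into 5 role groups. All 36 passed the filter on low counts and were tested. RNA was sequenced from bone marrow B-cells of mice with the genotype PAX5-ELN H2B-GFP, all given doxycycline and taken at 35 days, so both groups carry PAX5-ELN, which joins a B-cell transcription factor gene to the elastin gene, and a histone H2B tagged with GFP. The 5 GFP high libraries are labelled quiescent and the 5 GFP low libraries proliferating, and a cell loses tagged histone with each division. The comparison asks which of these genes differ between the labelled quiescent and proliferating progenitors. The age and number of animals, the promoters of the transgenes and whether libraries came from separate animals are not given in the sources used here, so a p-value here weighs differences against the spread between libraries, and how much of that spread is technical is not known.

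The depth of a library was 11347097 to 13838769 counts for GFP high and 10640894 to 14858520 for GFP low, and the 36 genes together took 0.764% to 0.859% of the counts of GFP high libraries and 0.767% to 0.926% of those of GFP low. All 10 proliferation markers examined, Mki67 and Ccnb2 among them, were lower in GFP high. All 14 B-cell progenitor markers were detected, with a summed level of 15727 to 18112 CPM for GFP high and 12644 to 13959.7 CPM for GFP low. These ranges do not overlap. By the test given below, 5 of the 14 were higher in GFP high and 0 lower, or 11 and 1 with libraries paired by number. Over all genes tested, 12.0% were higher and 15.4% lower, or 20.7% and 21.0% with the pairing. CPM is a count scaled to the library's total, with a TMM factor, and where 5 values are listed they run from library 1 to library 5. Markers of other cell types are given after the results. In whole-population RNA like this, fewer cells of a type and less RNA per cell cannot be told apart.

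Secreted and membrane proteins enter the ER through the Sec61 channel, fold with the help of the Hsp70-type chaperone BiP, of lectin chaperones that read their sugars and of disulfide isomerases, and are sent back to the cytosol for destruction if folding fails. When unfolded protein builds up, the membrane sensors IRE1, PERK and ATF6 raise chaperones and degradation factors, slow translation through phosphorylated eIF2 alpha, and induce the transcription factors ATF4 and CHOP. In the B lineage this response is best known from plasma cells, where XBP1 expands the ER for antibody secretion, and BiP itself was named for binding immunoglobulin heavy chains in pre-B cells.

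The regulatory element that links many of these genes is the ER stress response element, which is CCAAT, then any 9 bases, then CCACG, and is known to be bound by NF-Y and by ATF6 or XBP1. Of the 36 genes, 30 had a promoter window in the RefSeq table (build GRCm38.p6, 250 bases before to 50 after a start site). On either strand the element was found in 9 of the 30, 30.0%, against 37 of all 27025 genes in the table, 0.137%, so the 9 are 24.3% of all genes that hold it. The 9 were Hspa5, Hsp90b1, Calr, Canx, Creld2, Dnajc3, Pdia6, Derl3 and Syvn1. The element was already known to link such genes, so its excess in this list is background and not a result of these data. The shorter form, which is ATTGG, any 1 base and CCACG, was found in 2 of 30, Herpud1 and Dnajb11, and in 0.0444% of all genes. TGACGTGG was found in 1 of 30, Txndc5, and in 0.714% of all genes. The ATF4-type element TGATGNAA was found in 2 of 30, Herpud1 and Txndc5, and in 4.51% of all genes. Derl3 and Canx passed the edgeR test between GFP high and GFP low reported below, and Hspa5, Pdia6, Syvn1 and Herpud1 did not. With libraries paired by number, Herpud1 passed too. Windows from these 6 promoters follow, 5 with the longer element and 1 with the shorter. Each is read 5′ to 3′ on the gene's strand, with 20 bases on each side and the element in capitals; Derl3 carries it in reverse and Herpud1 the shorter form.
Hspa5 (chr2:34772005-34772063, plus strand): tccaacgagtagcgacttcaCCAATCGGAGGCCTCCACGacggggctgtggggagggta
Canx (chr11:50325780-50325838, minus strand): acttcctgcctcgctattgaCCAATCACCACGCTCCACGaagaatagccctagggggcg
Pdia6 (chr12:17266471-17266529, plus strand): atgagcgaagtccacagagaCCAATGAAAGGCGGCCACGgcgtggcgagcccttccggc
Syvn1 (chr19:6046512-6046570, plus strand): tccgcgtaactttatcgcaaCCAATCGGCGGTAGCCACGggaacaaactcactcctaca
Derl3 (chr10:75893222-75893280, plus strand): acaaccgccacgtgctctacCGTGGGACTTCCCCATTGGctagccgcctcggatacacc
Herpud1 (chr8:94386357-94386407, plus strand): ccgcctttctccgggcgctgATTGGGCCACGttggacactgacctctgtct
The element lay 65 to 47 bases before the start site in Hspa5, 44 to 26 in Syvn1, 98 to 80 in Pdia6, 145 to 127 in Canx, 156 to 138 in Derl3 and 52 to 42 in Herpud1. A match of letters is a description and does not show binding.

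In the fit without the library number, the genes that fell in GFP high were chaperone, isomerase and translocation genes. Those that rose were a degradation gene and a sensor gene, and the number as a block added to both, as given below. Of the 36 genes, 2 rose, 10 fell and 24 did not pass (quasi-likelihood test of edgeR, with p adjusted by Benjamini-Hochberg over the 12772 genes tested and a threshold of 0.05). That is 5.56% and 27.8% of the list, beside 12.0% higher and 15.4% lower over all genes tested. The 2 that rose were the derlin gene Derl3 and the sensor gene Ern1. The 10 that fell were Sdf2l1, Manf, Fkbp2, Fkbp11, Pdia3, Txndc5, Canx, Sec61g, Sec61b and Ssr1. The median log2 fold change, GFP high over GFP low, was -0.14 over the list and 0.03 over all genes tested. Libraries of the same number deviated together, which the fit above leaves out. With the number as a block 6 rose and 14 fell, beside 20.7% and 21.0% of all genes. The block kept the 12 calls and added Dnajb9, Herpud1, Sel1l and Derl1 as higher and Dnajb11, Creld2, Calr and Ssr2 as lower. With libraries scaled by total counts alone, 3 rose and 8 fell. Without both libraries numbered 3, 2 rose and 6 fell, and in libraries 4 and 5 alone 4 rose and 7 fell.

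The libraries of the gates did not overlap for 6 genes: Derl3 and Ern1 lay higher in every GFP high library, 5.56% of the list beside 7.90% of all genes, and Sdf2l1, Fkbp11, Sec61g and Ssr1 lay lower, 11.1% beside 12.6%. These shares are near or under those of all genes. Within same-numbered pairs, 7 genes were higher in GFP high in 5 of 5 pairs, 19.4% beside 22.8%, and 14 were lower in 5 of 5 pairs, 38.9% beside 23.1%.

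**Figure D1:**
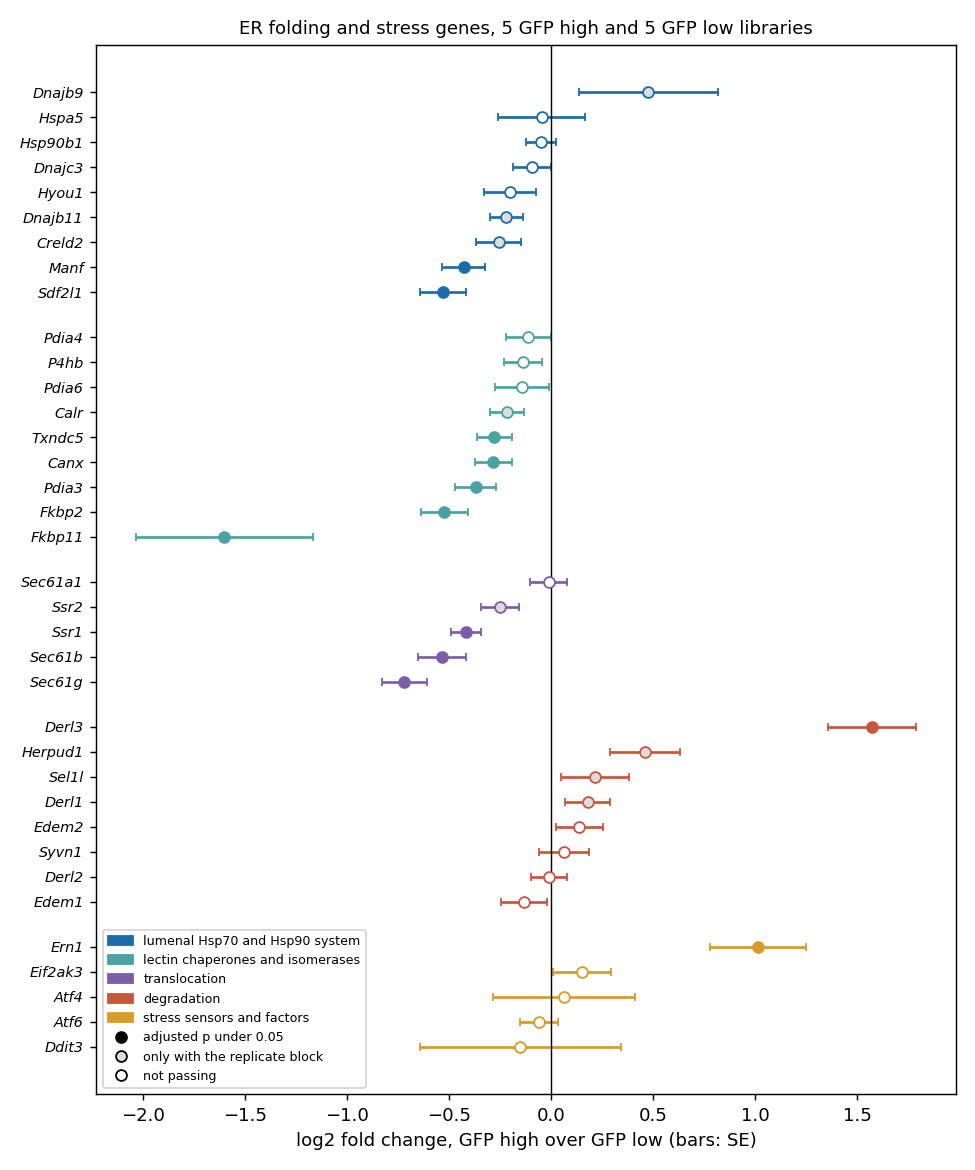
The log2 fold change of each gene, GFP high over GFP low, with its standard error, by role group from top to bottom; filled points passed the edgeR test, gray points only with the replicate block, and open points neither. Chaperone, isomerase and translocation genes lie mostly left of 0 and degradation genes mostly right, with Derl3 at 1.57 and Fkbp11 at -1.60 as the ends of the range.

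Of the 5 genes of the Sec61 channel and the translocon-associated protein complex beside it, 3 fell, 0 rose and 2 did not pass (median log2 fold change -0.42). That is beside 15.4% lower and 12.0% higher over all genes tested. Of the 3 channel genes, Sec61g and Sec61b fell and Sec61a1 did not pass. Together the 5 genes summed to 550.0 to 651 CPM for GFP high and 662 to 782 CPM for GFP low, ranges that do not overlap. Sec61g, a small subunit of the channel (ENSMUSG00000078974, mm10 chromosome 11, 16500530 to 16508484), had 35.2, 32.96, 36.6, 31.4 and 34.9 CPM in the 5 GFP high libraries, against 51.4, 62.7, 68.1, 51.2 and 49.1 CPM in the 5 GFP low libraries. Every GFP high library lay lower than every GFP low library. Its mean was 34.2 ± 2.05 CPM for GFP high and 56.5 ± 8.37 CPM for GFP low (SD of 5 libraries a gate), a log2 fold change of -0.72 ± 0.11 (SE, edgeR adjusted p = 0.000513).

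Sec61b, the other small subunit, had 77.4, 67.04, 67.6, 79.8 and 101 CPM in the 5 GFP high libraries, against 97.97, 119, 125, 112 and 117 CPM in the 5 GFP low libraries. GFP high library 5 overlapped GFP low library 1, and the other GFP high libraries lay lower than all of GFP low (-0.54 ± 0.12, adjusted p = 0.00507). Within libraries 4 and 5 alone the value was -0.35 (edgeR adjusted p = 0.0592). Sec61a1, the pore itself, had 163, 199, 191, 198 and 225 CPM in the 5 GFP high libraries, against 181, 215, 195, 195 and 200.3 CPM in the 5 GFP low libraries. The gates overlapped throughout and the fold change was -0.01 ± 0.09 (adjusted p = 0.931), or 0.04 when scaled by total counts. Whether the subunits differ in fold change was not tested.

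Ssr1 encodes the alpha subunit of the translocon-associated protein complex, which assists insertion of some signal peptides. It had 179, 193, 175, 178 and 175 CPM in the 5 GFP high libraries, against 221, 228, 259.7, 238 and 257 CPM in the 5 GFP low libraries. The gates did not overlap, and the mean was 180.1 ± 7.67 CPM for GFP high and 241 ± 17.4 CPM for GFP low (SD of 5 libraries a gate; log2 fold change -0.42 ± 0.07, edgeR adjusted p = 0.0014). Ssr2, the beta subunit, was at -0.25 ± 0.09 (adjusted p = 0.0595) and passed with the block (-0.26, adjusted p = 0.0171) or without GFP high library 5 (-0.28, adjusted p = 0.0401).

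Of the 9 genes of the lumenal Hsp70 and Hsp90 system, 2 fell, 0 rose and 7 did not pass (median log2 fold change -0.20). That is beside 15.4% lower and 12.0% higher over all genes tested. With the block 4 fell and 1 rose, beside 21.0% lower and 20.7% higher over all genes. In libraries 4 and 5 alone 1 fell and 1 rose, and without both libraries numbered 3, 1 fell and 0 rose. Sdf2l1, a stress-inducible partner of the BiP co-chaperone ERdj3, had 60.9, 71.04, 68.9, 76.7 and 77.2 CPM in the 5 GFP high libraries, against 78.9, 116, 114, 96.4 and 108 CPM in the 5 GFP low libraries. No GFP high library reached a GFP low library (-0.53 ± 0.11, edgeR adjusted p = 0.00418). Manf, a BiP-binding factor that is held in the ER and secreted under stress, had 80.0, 82.4, 85.96, 87.6 and 94.1 CPM in the 5 GFP high libraries, against 93.97, 130.4, 135, 116 and 104 CPM in the 5 GFP low libraries. Only GFP high library 5 and GFP low library 1 overlapped (-0.43 ± 0.11, adjusted p = 0.00925). Manf was at -0.29 (adjusted p = 0.0728) in libraries 4 and 5 alone and at -0.35 (adjusted p = 0.0603) without both libraries numbered 3.

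Hspa5 encodes BiP, the central chaperone and sensor partner of the ER (ENSMUSG00000026864, mm10 chromosome 2, 34771970 to 34777547). Its level was 1471, 1312, 1399, 889 and 844 CPM in the 5 GFP high libraries, against 1412, 1379, 1645, 848 and 836 CPM in the 5 GFP low libraries. In both gates libraries 4 and 5 were low and libraries 1 to 3 high, and the gates overlapped. The log2 fold change was -0.05 ± 0.21 (edgeR adjusted p = 0.892; -0.03 and adjusted p = 0.658 with the block), and its sign turned with total-count scaling (0.01). Hsp90b1, the ER Hsp90 known as GRP94, was at -0.05 ± 0.07 (adjusted p = 0.647), and 15.7% of its exonic bases are shared with other annotated genes.

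Among J-domain partners of BiP, Dnajb11 had a negative log2 fold change and Dnajb9 a positive one, and whether they differ was not tested. Dnajb11, which encodes ERdj3, had 185, 175, 179, 205 and 195 CPM in the 5 GFP high libraries, against 199, 236, 241, 205 and 215 CPM in the 5 GFP low libraries. Library 4 was level between the gates and the other 4 lay lower in GFP high than their pairs (-0.22 ± 0.08, edgeR adjusted p = 0.0634). It passed with the block (-0.22, adjusted p = 0.0315) and without GFP low library 1 (-0.25, adjusted p = 0.0469). Dnajb9, which encodes ERdj4, a co-chaperone that holds IRE1 inactive, was shown in full after its values were seen, and had 221, 186, 198, 124 and 88.4 CPM in the 5 GFP high libraries, against 172, 126, 174, 63.8 and 53.3 CPM in the 5 GFP low libraries. It was higher in GFP high in each same-numbered pair, while the gates overlapped because libraries 4 and 5 were low in both. Without the block it did not pass (0.47 ± 0.34, adjusted p = 0.327). With the block it rose by 0.55 ± 0.10 (adjusted p = 0.000573), and the log2 fold change was 0.38 (adjusted p = 0.0625) in libraries 1 to 3 alone and 0.85 (adjusted p = 0.00378) in libraries 4 and 5 alone.

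The remaining genes of this group did not pass: Dnajc3, an inhibitor of PERK and BiP co-chaperone, at -0.09 ± 0.09, Hyou1, the nucleotide exchange factor of BiP, at -0.20 ± 0.13, and the stress-inducible Creld2 at -0.26 ± 0.11. Of these, Creld2 passed with the block (-0.26, edgeR adjusted p = 0.0402).

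All 9 lectin chaperone and isomerase genes had negative log2 fold changes, 5 of them past the threshold and 0 higher (median -0.28). That is beside 15.4% lower and 12.0% higher over all genes tested. The signs stayed negative in each of the 18 alternatives examined. The count of 5 was 2 without GFP high library 1, with no filter on low counts or without both libraries numbered 3. It was 3 without GFP high library 2 or 3 or GFP low library 2 or 5, with total-count scaling or in libraries 1 to 3 alone. Fkbp2, an ER peptidyl-prolyl isomerase, had 34.98, 34.5, 33.9, 38.8 and 46.1 CPM in the 5 GFP high libraries, against 45.5, 56.5, 58.3, 51.6 and 59.0 CPM in the 5 GFP low libraries. GFP high library 5 lay just over GFP low library 1, and the others did not overlap (-0.52 ± 0.11, edgeR adjusted p = 0.00476; -0.40 and adjusted p = 0.065 in libraries 4 and 5 alone). Fkbp11, a related isomerase known from secretory cells, was barely detected, at 10, 4, 8, 4 and 2 counts in the 5 GFP high libraries, against 20, 12, 12, 18 and 26 counts in the 5 GFP low libraries. Every GFP high library held fewer counts than every GFP low library (-1.60 ± 0.43, adjusted p = 0.0161). The call of Fkbp11 was lost in libraries 1 to 3 alone (-1.03, adjusted p = 0.235) or with no filter on low counts (adjusted p = 0.0837).

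Pdia3, the disulfide isomerase ERp57 that works with the lectin chaperones, had 431, 442, 385, 519 and 529 CPM in the 5 GFP high libraries, against 497, 613, 627, 627 and 619 CPM in the 5 GFP low libraries. GFP low library 1 stood lower than the other GFP low libraries and within the range of GFP high. Pdia3 averaged 461 ± 61.2 CPM for GFP high and 596 ± 55.9 CPM for GFP low (SD of 5 libraries a gate; -0.37 ± 0.10, edgeR adjusted p = 0.0163). Its call was lost with GFP high library 1 left out (adjusted p = 0.0514), with GFP low library 2 left out (adjusted p = 0.0501) and without both libraries numbered 3 (-0.28, adjusted p = 0.0947).

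The membrane lectin chaperone gene Canx averaged 644 ± 74.3 CPM for GFP high and 785 ± 60.97 CPM for GFP low (SD of 5 libraries a gate; -0.28 ± 0.09, edgeR adjusted p = 0.0324). Txndc5, a thioredoxin-domain isomerase, averaged 96.2 ± 6.15 CPM for GFP high and 117 ± 10.5 CPM for GFP low (-0.28 ± 0.08, adjusted p = 0.0274). Both lay near the threshold. Canx lost its call without GFP high library 1, 2 or 3 or GFP low library 2, 3 or 5 (highest adjusted p = 0.0926), and Txndc5 lost it without GFP high library 1, 2, 3 or 4 or GFP low library 4 or 5 (highest adjusted p = 0.0676). Without both libraries numbered 3 neither passed (adjusted p = 0.131 for Canx and adjusted p = 0.131 for Txndc5). The same held with no filter (adjusted p = 0.0909 for Canx and adjusted p = 0.0938 for Txndc5) and with total-count scaling (adjusted p = 0.0602 for Canx and adjusted p = 0.0641 for Txndc5). Txndc5 also lost its call in libraries 1 to 3 alone (adjusted p = 0.157). With the block both passed (adjusted p = 0.00211 for Canx and adjusted p = 0.00592 for Txndc5). Calr, the soluble lectin chaperone, did not pass (-0.22 ± 0.08, adjusted p = 0.0709), but did with the block (-0.21, adjusted p = 0.0177) or without GFP low library 1 (-0.26, adjusted p = 0.0353). The isomerase genes P4hb (-0.14 ± 0.09), Pdia6 (-0.14 ± 0.13) and Pdia4 (-0.11 ± 0.11) did not pass in either fit. Pdia4 had 216, 237, 214, 281 and 266 CPM in the 5 GFP high libraries, against 229, 251, 232, 309 and 290.0 CPM in the 5 GFP low libraries. Within each pair GFP high was slightly lower, and libraries 4 and 5 were the highest of both gates.

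**Figure D2:**
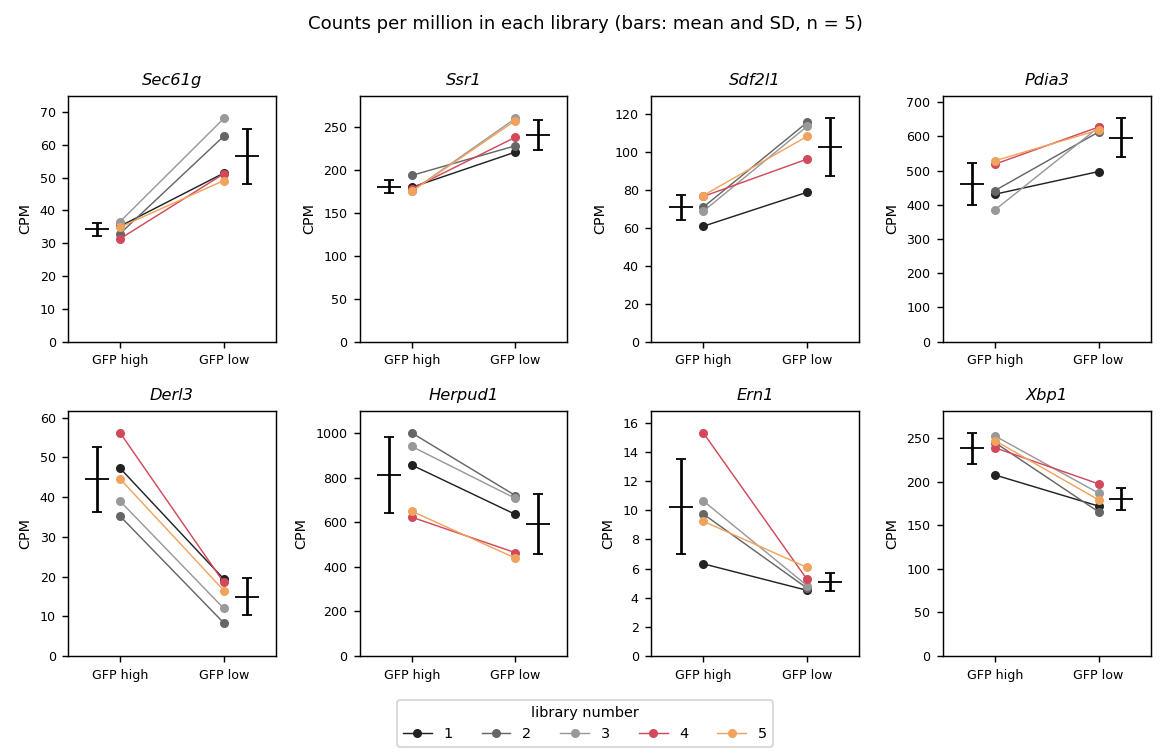
CPM of 8 genes in each library, GFP high left and GFP low right, with lines joining libraries of the same number and bars giving mean and SD (n = 5). The 5 GFP high values of Sec61g lie between 31.4 and 36.6 CPM, under all GFP low values, while those of Derl3 lie between 35.2 and 56.2 CPM, over all GFP low values.

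Among degradation genes 1 of 8 rose and 0 fell, beside 12.0% higher and 15.4% lower over all genes tested. The count that rose is near the share of all genes. The median log2 fold change was 0.16. With the block 4 rose and 0 fell, beside 20.7% higher and 21.0% lower over all genes. Under 8 other alternatives, named below for Herpud1, 2 rose and 0 fell. Derl3, a derlin of the channel that moves misfolded proteins back to the cytosol (ENSMUSG00000009092, mm10 chromosome 10, 75893413 to 75895941), had 47.3, 35.2, 38.99, 56.2 and 44.6 CPM in the 5 GFP high libraries, against 19.4, 8.33, 11.99, 18.5 and 16.5 CPM in the 5 GFP low libraries. Each GFP high library lay over each GFP low library. Derl3 averaged 44.4 ± 8.07 CPM for GFP high and 14.9 ± 4.68 CPM for GFP low (SD of 5 libraries a gate), a log2 fold change of 1.57 ± 0.22 (SE, edgeR adjusted p = 0.000262), and it passed with each single library left out (1.44 to 1.68). Its relatives Derl1 and Derl2 did not pass. Derl1 was at 0.18 ± 0.11 (adjusted p = 0.251; with the block 0.18, adjusted p = 0.024), with 169.6, 199, 219, 177 and 165 CPM in the 5 GFP high libraries, against 153, 173, 200.2, 149 and 147 CPM in the 5 GFP low libraries. The gates overlapped, and GFP high was higher in 5 of 5 pairs. Derl2 had 78.04, 73.1, 73.7, 83.99 and 74.9 CPM in the 5 GFP high libraries, against 72.4, 80.2, 66.9, 85.8 and 81.9 CPM in the 5 GFP low libraries, overlapping throughout (-0.01 ± 0.09, adjusted p = 0.933; 0.04 with total-count scaling).

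Herpud1, the scaffold of the HRD1 ubiquitin ligase and a gene strongly induced by ER stress (ENSMUSG00000031770, mm10 chromosome 8, 94386438 to 94395377), had 857, 1000.4, 939.7, 623 and 649 CPM in the 5 GFP high libraries, against 635, 719.5, 707, 463 and 439 CPM in the 5 GFP low libraries. In both gates libraries 4 and 5 were lowest, so the gates overlapped, yet GFP high was higher in 5 of 5 pairs by 0.41 to 0.56 on the log2 scale. The log2 fold change was 0.46 ± 0.17 without the block (edgeR adjusted p = 0.0658) and 0.46 ± 0.05 with it (adjusted p = 1.14e-05). It was 0.46 (adjusted p = 0.00672) in libraries 1 to 3 alone and 0.48 (adjusted p = 0.000674) in libraries 4 and 5 alone. It also passed without the block by DESeq2 (adjusted p = 0.0296), with total-count scaling (adjusted p = 0.0392), with no filter on low counts (adjusted p = 0.0358), and without GFP high library 4, GFP high library 5 or GFP low library 2 (adjusted p = 0.0388, 0.0368 and 0.0459).

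Sel1l, the adaptor of the same ligase, was at 0.21 ± 0.17 (edgeR adjusted p = 0.365) and passed with the block (0.22, adjusted p = 0.0329). The ligase gene Syvn1 itself was at 0.06 ± 0.12 (adjusted p = 0.744), and its sign turned without GFP high library 3 (-0.03). The mannose-trimming genes Edem1 (-0.13 ± 0.11) and Edem2 (0.14 ± 0.12) did not pass in either fit. In libraries 4 and 5 alone the signs of both turned (Edem1 0.09, Edem2 -0.01).

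Among the 5 sensors and stress factors 1 rose, 0 fell and 4 did not pass (median 0.06), beside 12.0% higher and 15.4% lower over all genes tested. Ern1, which encodes IRE1, the kinase and ribonuclease that splices Xbp1 RNA (ENSMUSG00000020715, mm10 chromosome 11, 106394650 to 106487852), had 6.33, 9.74, 10.6, 15.3 and 9.25 CPM in the 5 GFP high libraries, against 4.51, 4.66, 4.83, 5.26 and 6.08 CPM in the 5 GFP low libraries. All GFP high libraries lay over all GFP low libraries, with GFP high library 1 close to them. It averaged 10.3 ± 3.26 CPM for GFP high and 5.07 ± 0.633 CPM for GFP low (SD of 5 libraries a gate; 1.01 ± 0.24, edgeR adjusted p = 0.00687), a low level of 87, 112, 152, 197 and 107 counts in GFP high and 63, 66, 50, 67 and 90 counts in GFP low. It passed with each single library left out (0.82 to 1.17).

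Xbp1, the factor downstream of IRE1 and not one of the 36, had 208, 245, 252, 239 and 247 CPM in the 5 GFP high libraries, against 172, 165, 187, 197 and 179 CPM in the 5 GFP low libraries. The gates did not overlap (0.40 ± 0.08, edgeR adjusted p = 0.00287). Gene counts do not separate spliced from unspliced Xbp1 RNA. Atf6, the sensor that becomes a transcription factor when cleaved, had 57.8, 59.9, 60.3, 57.9 and 59.97 CPM in the 5 GFP high libraries, against 59.97, 62.8, 74.7, 54.7 and 56.6 CPM in the 5 GFP low libraries. GFP high stayed within a narrow span and GFP low spread around it (-0.06 ± 0.09, adjusted p = 0.671; 0.07 in libraries 4 and 5 alone).

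Eif2ak3 encodes PERK, the kinase that phosphorylates eIF2 alpha. It had 239, 288, 269, 183 and 198 CPM in the 5 GFP high libraries, against 225, 235, 246, 168 and 187 CPM in the 5 GFP low libraries. GFP high was slightly higher in 5 of 5 pairs, a difference that passed neither without the block (0.15 ± 0.14, edgeR adjusted p = 0.475) nor with it (adjusted p = 0.0704). Atf4, the factor translated when eIF2 alpha is phosphorylated, had 534, 551, 574, 272 and 217 CPM in the 5 GFP high libraries, against 499.8, 536, 599, 212 and 210.3 CPM in the 5 GFP low libraries. The libraries split by number, not by gate (0.06 ± 0.35, adjusted p = 0.915; with the block 0.09, adjusted p = 0.257). Ddit3 encodes CHOP, a factor linked to death under prolonged stress, and had 35.7, 34.2, 52.1, 16.4 and 13.6 CPM in the 5 GFP high libraries, against 34.9, 51.7, 60.7, 11.2 and 11.1 CPM in the 5 GFP low libraries. Here too libraries 4 and 5 were lowest in both gates (-0.15 ± 0.49, adjusted p = 0.848; with the block -0.02, adjusted p = 0.924). The log2 fold change of Ddit3 was -0.25 in libraries 1 to 3 alone and 0.41 in libraries 4 and 5 alone, and neither passed. A second, shorter annotated gene of 105 bases has the same symbol and was listed at 0 in all 10 libraries.

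Library number and gate took different shares of the variation from gene to gene. Sums of squares of log2(CPM + 0.5) over the 10 libraries were divided between gates (1 degree of freedom), between numbers (4) and the rest (4). Numbers held 98.2% for Atf4, 97.6% for Hspa5 and 95.3% for Ddit3. These were the 3 of 36 genes over 95%, a share that 1.49% of all genes tested exceeded. The 95% mark lies just under Ddit3, with Pdia4 next at 89.6%, and the count is a description and not a test. Gates held 0.562% for Atf4 and 0.187% for Hspa5. The opposite held for Ssr1, with 88.2% between gates and 2.69% between numbers, for Sec61g (86.1% and 8.58%) and for Derl3 (83.6% and 14.2%). By role group the median between gates was 71.1% for translocation, 55.4% for lectin chaperones and isomerases, 23.6% for the lumenal Hsp70 and Hsp90 system, 16.2% for degradation and 5.23% for sensors and factors, beside 27.4% over all genes. The median between numbers was 37.3% over the 36 genes and 42.7% over all genes. Numbers have 4 degrees of freedom and gates 1, so a larger share between numbers can arise with no difference between numbers. The median between numbers was 88.8% for sensors and factors and 65.6% for degradation.

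In both gates libraries 4 and 5 lay lower than libraries 1 to 3 for 7 genes, Hspa5, Dnajb9, Herpud1, Syvn1, Eif2ak3, Atf4 and Ddit3, 19.4% of the list beside 11.5% of all genes. They lay higher in both for 5 genes, Dnajc3, Pdia4, Pdia6, P4hb and Sel1l, 13.9% beside 11.7%. This split was noticed in these data, the labels do not name a batch, and no test was made of it. Atf3, an early stress factor that is not among the 36 and was chosen after its values were seen, had 13313, 3355, 6519, 673 and 424 counts in the 5 GFP high libraries, against 6412, 836, 2741, 96 and 140 counts in the 5 GFP low libraries. It followed the same split, was higher in GFP high in 5 of 5 pairs, and passed only with the block (1.65, adjusted p = 6.82e-05, against 1.18 ± 1.07 and adjusted p = 0.445 without it). What the numbers stand for was not tested.

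**Figure D3:**
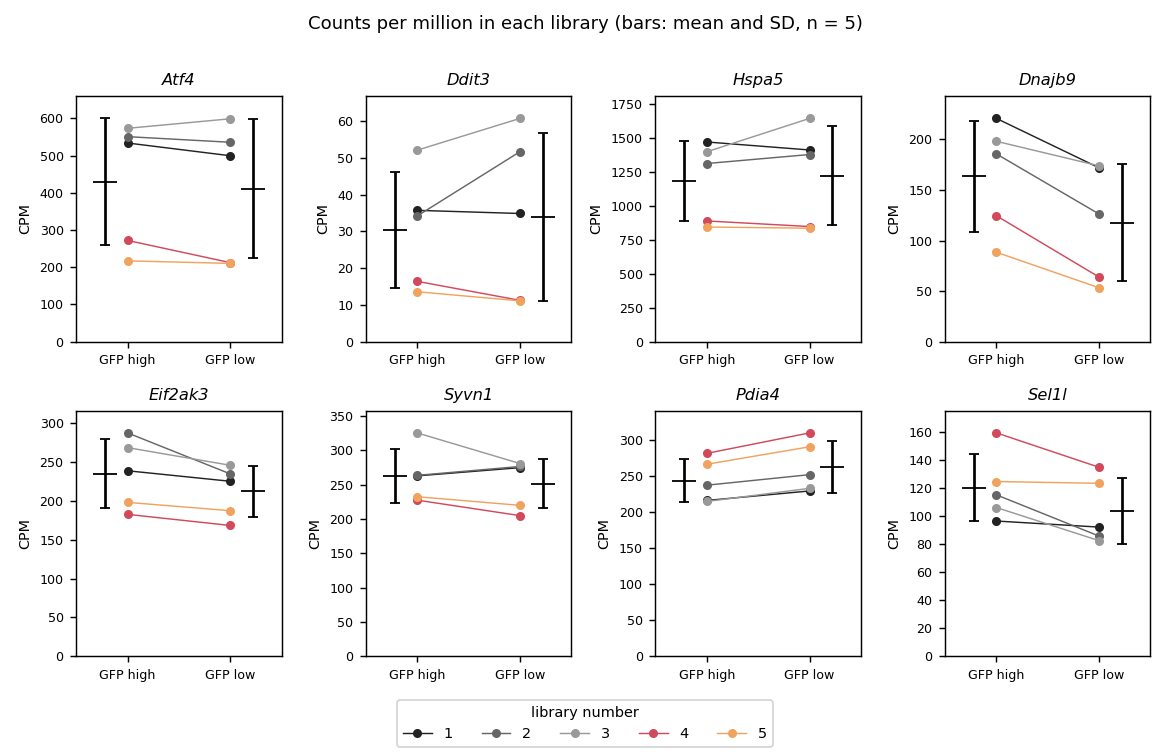
CPM of 8 genes whose values follow the library number, GFP high left and GFP low right, with lines joining libraries of the same number and bars giving mean and SD (n = 5). Libraries 4 and 5 (colored) lie lowest in both gates for Atf4, Ddit3, Hspa5, Dnajb9, Eif2ak3 and Syvn1, and highest for Pdia4 and Sel1l.

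**Figure D4:**
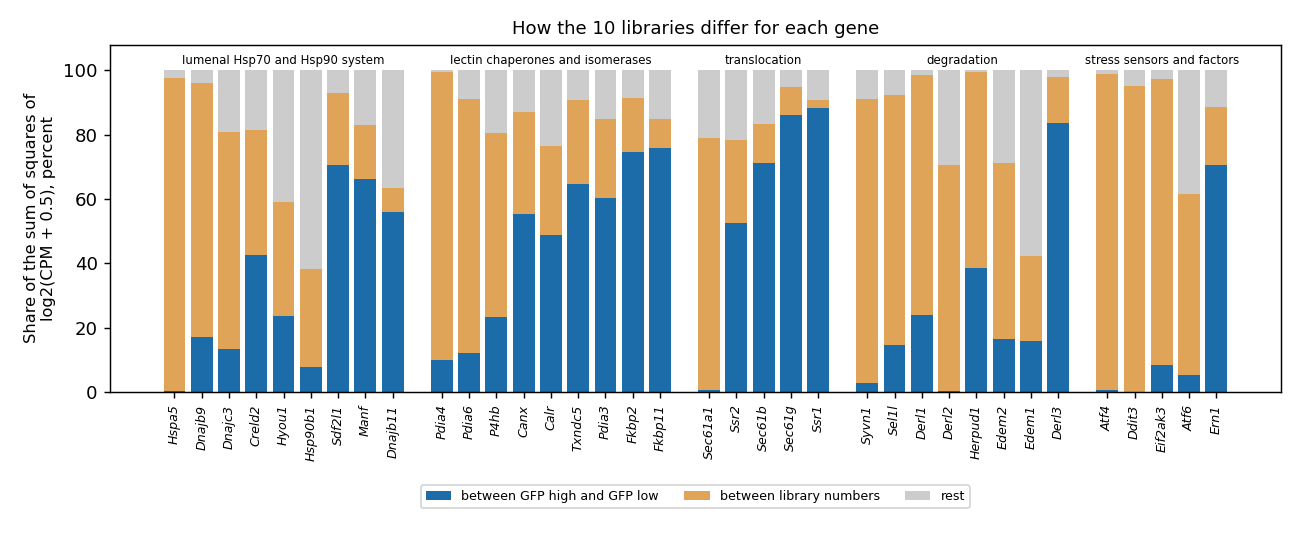
For each gene, by role group, the share in percent of the sum of squares of log2(CPM + 0.5) over the 10 libraries that lies between gates (blue), between library numbers (orange) and in the rest (gray). Ssr1 has 88.2% between gates, while Atf4 has 98.2% between numbers.

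Within same-numbered pairs the role groups differed in sign. The median difference, GFP high minus GFP low in log2(CPM + 0.5), over the 8 degradation genes was 0.13, 0.31, 0.18, 0.20 and 0.12 in pairs 1 to 5. Over the 9 lectin chaperone and isomerase genes it was -0.15, -0.30, -0.40, -0.14 and -0.23, and over the 5 translocation genes -0.30, -0.45, -0.57, -0.42 and -0.20. Degradation medians were positive in each pair, and those of lectin chaperones and isomerases and of translocation were negative in each pair. The lumenal Hsp70 and Hsp90 system was at -0.22, -0.25, -0.25, 0.07 and -0.14 and the sensors and factors at 0.08, 0.04, -0.06, 0.36 and 0.08, both with pairs of either sign. As a summed level degradation genes had 1499 to 1876 CPM for GFP high and 1219 to 1566 CPM for GFP low. Of the mean sums of 1686 CPM for GFP high and 1393 CPM for GFP low, Herpud1 alone held 814 and 593 CPM. Herpud1 did not pass without the block. Lectin chaperones and isomerases summed to 2265 to 2896 CPM for GFP high and 2663 to 3227 CPM for GFP low.

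Genes that hold the ER stress response element in the promoter windows searched had calls of either sign. Of the 9 with the element, 1 rose (Derl3, 1.57), 1 fell (Canx, -0.28) and 7 did not pass, with a median of -0.09. Of the 21 whose window does not hold these letters, 1 rose and 8 fell, with a median of -0.14. Over all genes tested, 12.0% were higher and 15.4% lower. With the block, 1 rose and 3 fell among those with the element, and 4 rose and 9 fell among the 21, beside 20.7% and 21.0% of all genes. Whether genes with and without the element differ was not tested. Hspa5 (-0.05), Pdia6 (-0.14) and Syvn1 (0.06) carry it and did not pass.

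Further lists hold other genes of the same pathway. Beside the counts below, 12.0% of all genes tested were higher and 15.4% lower, or 20.7% and 21.0% with the block. Of 28 other genes of translocation, signal peptidase and glycosylation, 1 rose and 10 fell (median -0.21), and with the block 2 rose and 16 fell. Without both libraries numbered 3, 6 of them fell. Stt3b, a catalytic subunit of the oligosaccharyltransferase that adds sugars to entering proteins, averaged 151 ± 11.1 CPM for GFP high and 228 ± 10.3 CPM for GFP low (SD of 5 libraries a gate; -0.60 ± 0.08, edgeR adjusted p = 0.000148). Srp19, a protein of the signal recognition particle, averaged 88.1 ± 7.29 CPM for GFP high and 133 ± 7.66 CPM for GFP low (-0.60 ± 0.08, adjusted p = 0.000231). The gene that rose, named after its values were seen, was Srpr, the receptor subunit that binds that particle (0.39 ± 0.09, adjusted p = 0.00664).

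Of 29 other ER folding genes 25 were tested, 5 rose and 3 fell (median -0.05). Over the alternatives 2 to 7 rose and 1 to 4 fell, with the lowest counts in libraries 4 and 5 alone. The ER peroxiredoxin gene Prdx4 fell to 84.3 ± 11.3 CPM in GFP high, against 148 ± 14.8 CPM in GFP low (SD of 5 libraries a gate; -0.81 ± 0.11, edgeR adjusted p = 0.000202), and Txndc11 rose (0.40 ± 0.09, adjusted p = 0.00567; 0.27 and adjusted p = 0.0977 in libraries 4 and 5 alone). Named after their values were seen, Cnpy3 (0.39) and the glucosyltransferase-family gene Uggt2 (1.20) also rose and Hspa13 (-0.42) also fell. The oxidase gene Ero1lb (0.51), Dnajc1 (0.33) and the glucosidase subunit gene Prkcsh (-0.31) completed the count, and passed in 3, 3 and 4 of 10 fits with 1 library left out. Of 22 other degradation genes, 2 rose and 1 fell (median 0.08), under the shares of all genes, and with the block 6 rose and 3 fell. Rnf139, an ER ubiquitin ligase, rose (0.58 ± 0.10, adjusted p = 0.000976), as did the lectin gene Os9 (0.28 ± 0.08, adjusted p = 0.0236), whose call was lost without GFP high library 4 (adjusted p = 0.0591). Os9 was at adjusted p = 0.0521 in libraries 1 to 3 alone and adjusted p = 0.0616 in libraries 4 and 5 alone. Get4, named after its values were seen, fell (-0.33) and passed in 4 of 10 fits with 1 library left out.

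Of 13 other sensors and stress factors, 3 rose and 1 fell (median 0.05), and with the block 6 rose and 1 fell. Besides Xbp1, the membrane-bound factor gene Creb3 (0.48 ± 0.11, edgeR adjusted p = 0.00826) and Tmbim6 (0.28 ± 0.09, adjusted p = 0.0302) rose, both named after their values were seen, and Tmbim6 passed in 4 of 10 fits with 1 library left out. Eif2s1, which encodes the eIF2 alpha that PERK phosphorylates, fell to 215 ± 16.8 CPM in GFP high, against 350.5 ± 32.9 CPM in GFP low (SD of 5 libraries a gate; -0.70 ± 0.09, adjusted p = 0.000117).

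Of 22 targets of ATF4 and CHOP 18 were tested, 2 rose and 7 fell (median -0.19), and with the block 4 rose and 8 fell. The lowest p belonged to Psat1, of serine synthesis (98.2 ± 10.9 CPM for GFP high and 207 ± 21.4 CPM for GFP low, SD of 5 libraries a gate; -1.08 ± 0.10, edgeR adjusted p = 2.14e-05), and Mthfd2, of mitochondrial folate metabolism (-0.91 ± 0.09, adjusted p = 2.59e-05). The 2 that rose, named after their values were seen, were the pseudokinase gene Trib3 (0.85 ± 0.18, adjusted p = 0.00348) and the transcription factor gene Cebpb (1.21 ± 0.37, adjusted p = 0.0309), which passed in 5 of 10 fits with 1 library left out. Of 13 COPII coat genes, which carry cargo out of the ER, 2 rose and 2 fell, near the shares of all genes. They were led by Mia3 (0.38 ± 0.09, adjusted p = 0.00719) and Sec23a (-0.50 ± 0.13, adjusted p = 0.0147, and -0.36 with adjusted p = 0.0508 in libraries 4 and 5 alone). The others, Sec24b (0.30, higher) and Sec13 (-0.27, lower), were named after their values were seen and passed in 6 and 2 of 10 fits with 1 library left out. Of 14 heat shock genes outside the ER 12 were tested, 0 rose and 6 fell (median -0.27). These included the mitochondrial chaperonin genes Hspd1 (-0.53 ± 0.07, adjusted p = 0.000208) and Hspe1 (-0.46 ± 0.08, adjusted p = 0.000912). With the block 3 heat shock genes rose and 7 fell.

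**Figure D5:**
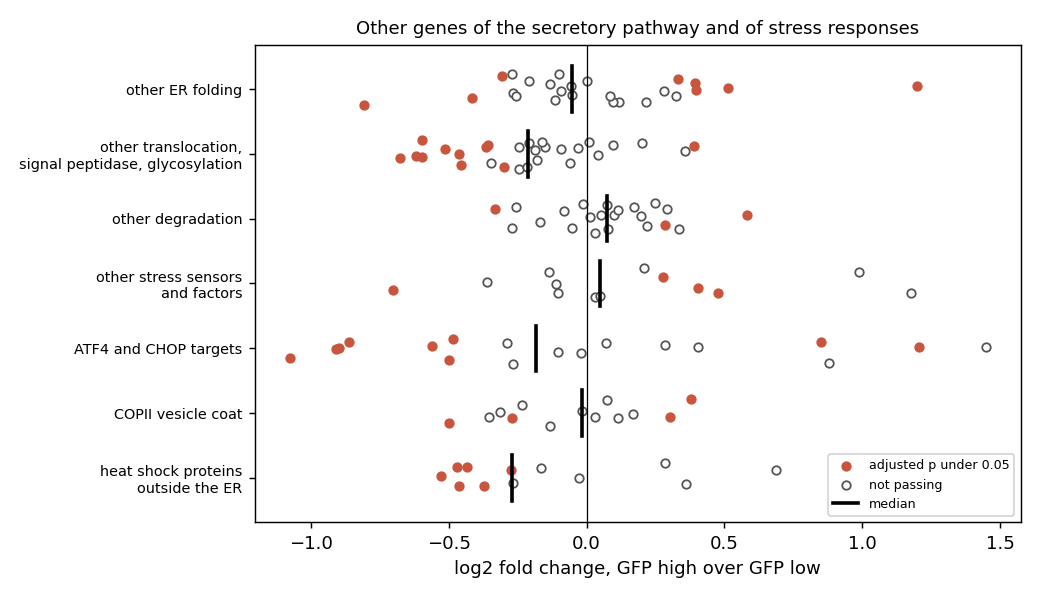
The log2 fold change, GFP high over GFP low, of each tested gene of 7 further lists, with called genes filled and the median of each list as a bar. Other translocation genes have a median of -0.21, other degradation genes of 0.08, and ATF4 and CHOP targets spread from -1.08 to 1.45.

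Plasma cells are rich in ER, and their markers were examined beside these genes. The 11 markers summed to 924 to 1496 CPM for GFP high and 848 to 1299 CPM for GFP low, 9 of them were tested, 2 rose and 2 fell. Beside the marker counts given here, 12.0% of all genes tested were higher and 15.4% lower. The joining chain gene Jchain had 16, 10, 2, 8 and 4 counts in the 5 GFP high libraries, against 852, 478, 786, 394 and 1204 counts in the 5 GFP low libraries (-6.48 ± 0.44, edgeR adjusted p = 6.18e-06). Igha, the constant region of antibody class A, had 6, 4, 19, 12 and 14 counts in GFP high, against 0, 0, 834, 4 and 1197 counts in GFP low, with nearly all of the GFP low counts in libraries 3 and 5. Sdc1 and Xbp1 moved the other way, Sdc1 with 39.05 ± 12.98 CPM for GFP high and 20.8 ± 6.16 CPM for GFP low (SD of 5 libraries a gate; 0.91 ± 0.29, adjusted p = 0.0339). With 1 library left out Sdc1 passed in 4 of 10 fits and Igha in 3 of 10, while Jchain passed in 10 of 10. Ighg1 was listed at 0 in all 10 libraries and Tnfrsf17 in all 5 of GFP high. The part of these cells in the lower chaperone and translocation levels of GFP high was not tested. Single markers, Jchain, Igha and Sdc1 included, were picked with their values in view. The plasmacytoid dendritic cell markers summed to 617 to 694 CPM for GFP high and 538 to 605 CPM for GFP low. Of 5 tested, 2 rose and 0 fell, with 3 log2 fold changes positive and 2 negative (median 0.09, from -0.38 to 4.52). Siglech had 20, 55, 82, 27 and 51 counts in GFP high, against 0, 4, 2, 2 and 2 counts in GFP low, a small part of that sum. The 7 NK cell markers summed to 187 to 328 CPM for GFP high and 63.4 to 166 CPM for GFP low, ranges that do not overlap. Nearly all of that sum was Klrb1c (274 ± 62.7 CPM for GFP high and 107 ± 43.4 CPM for GFP low; 1.36 ± 0.26, edgeR adjusted p = 0.00227), while Gzma and Eomes were listed at 0 in all 10 libraries. The 9 monocyte and macrophage markers summed to 127 to 181 CPM for GFP high and 129.9 to 179 CPM for GFP low, and of 6 tested, Csf1r (2.14) and Ly6c2 (1.16) rose and F13a1 (-1.01) fell. The 8 erythroid markers summed to 16.6 to 46.7 CPM for GFP high and 7.83 to 22.4 CPM for GFP low, and of 4 tested, Hbb-bs rose (1.11). The 10 T cell markers summed to 1.31 to 3.89 CPM for GFP high and 1.93 to 9.87 CPM for GFP low, and Lck, the 1 tested, fell (-1.55). The 10 neutrophil markers summed to 3.57 to 10.8 CPM for GFP high and 4.16 to 7.16 CPM for GFP low, and 0 of 3 tested passed. With 1 library left out Ly6c2 passed in 5 of 10 fits, and Hbb-bs and Lck in 3 of 10 each. The part of these cell types in the results was not tested.

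Compared per exonic length, as TPM, which divides a count by the annotated exon length and scales each library to the same sum, the 36 genes spanned a wide range of levels. By the mean over all 10 libraries Herpud1 was the highest, at 1187 ± 267 TPM for GFP high and 808 ± 166 TPM for GFP low (SD of 5 libraries a gate). Hspa5 followed with 953 ± 252 TPM for GFP high and 919.6 ± 257 TPM for GFP low, Atf4 with 622 ± 256 TPM for GFP high and 553 ± 242 TPM for GFP low and Calr with 538 ± 37.9 TPM for GFP high and 588 ± 44.3 TPM for GFP low. In both gates Herpud1 and Hspa5 differed by less than the larger of their SDs, as did Atf4 and Calr, while Hspa5 and Atf4 differed by more. The mean of Herpud1 lay over that of Hspa5 in GFP high and under it in GFP low, and the same held for Atf4 against Calr. Both genes of a pair were read in the same libraries, which these SDs do not take into account. At the other end were Atf6 (21.8 ± 0.775 TPM for GFP high and 21.3 ± 2.26 TPM for GFP low), Ern1 (4.26 ± 1.38 TPM for GFP high and 1.98 ± 0.282 TPM for GFP low) and Fkbp11 (0.535 ± 0.281 TPM for GFP high and 1.57 ± 0.435 TPM for GFP low), and Ern1 and Fkbp11 differed by less than the larger of their SDs in GFP low and by more in GFP high. The sensors PERK (133 ± 27.3 TPM for GFP high and 112 ± 15.4 TPM for GFP low), ATF6 and IRE1 thus had RNA levels in that order. Derl3 was below Derl1 in both gates, at 75.6 ± 13.5 TPM for GFP high and 24.1 ± 7.96 TPM for GFP low for Derl3 and 190.1 ± 27.7 TPM for GFP high and 157 ± 17.6 TPM for GFP low for Derl1.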

How the data were processed

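Polyadenylated RNA from sorted cells was amplified with the SMART-Seq v4 kit, per the labels' protocols. The table that the authors deposited holds raw counts, whole numbers with no scaling, for 55573 Ensembl identifiers. Per the submitters' processing notes, the tools and build were mm10, STAR, featureCounts and DESeq2, with no role or version. The sources used here do not say whether counting used strand, so overlapping genes are uncertain: 15.7% of the exonic bases of Hsp90b1, 12.8% of Ssr2, 11.9% of Txndc5 and 10.9% of Ddit3 are shared with other genes. Symbols, positions and exon lengths came from GENCODE M21 (GRCm38, which is mm10), and 99.833% of identifiers matched.

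The test was that of edgeR 4.0.16 (R 4.3.3), with filterByExpr, TMM scaling and the quasi-likelihood test (adjusted p by Benjamini-Hochberg over 12772 genes), GFP high over GFP low, with no covariate. Groups and numbers came from sample titles. The common biological coefficient of variation was 0.249, and a floor of 3 counts covers counting error only. TPM used the union of annotated exons. Alternatives were DESeq2 1.42.0, other scaling, no filter, left-out libraries and the library number as a block. Same-numbered libraries deviated together (r of 0.248 to 0.353 over genes, each library closest to its own number). The numbers, taken from titles, were treated as pairs in the block fit and the pair differences, and not in the main test. Libraries numbered 3 had 2 to 9 counts of Y-linked genes over both gates, and all others 309 to 2654. Libraries numbered 3 and the others thus did not share all their animals. No pair of libraries within a gate agreed within sampling noise (lowest chi-square per gene 7.19). The test was also tried on simulated counts, built from the means and spread of these data and with no effect of library number.

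The 36 genes, the other lists and the naming rule were chosen with earlier results of these data known. The rule gave values in every library for the 3 genes of lowest p and the 1 of highest p in each role group, for Hspa5, the sensors and factors, and Xbp1, and named 2 genes of lowest p from each other list. Dnajb9, Atf3 and the single cell type markers were named outside it. Promoter windows are RefSeq's for GRCm38.p6.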

Additional observations from a re-analysis of the deposited data

Results flagged for a closer look

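Of 72 sets of 5 libraries, 36 genes in each gate, 4 held 1 library far from the other 4 by Dixon's ratio of gap to range (critical value 0.71), and chance gives about 1 in 20. Dnajc3 was at 162.86 CPM in GFP high library 4, where the other GFP high libraries had 121 to 131 CPM. Ssr1 was at 193 CPM in GFP high library 2, where the others had 175 to 179 CPM, still lower than any GFP low library. Pdia3 was at 497 CPM in GFP low library 1, where the other GFP low libraries had 613 to 627 CPM. Edem1 was at 156 CPM in GFP low library 3, where the others had 126 to 129 CPM.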

How the results depend on the processing

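With the replicate block, which pairs libraries of the same number, genes higher in GFP high numbered 2645 and genes lower in GFP high 2688, and 6 of the 36 ER genes were higher and 14 lower. The block turned no sign among the ER genes and lost no call. Without both libraries numbered 3, they numbered 1012 and 1270, and 6 ER genes were lower. In libraries 4 and 5 alone, 4 ER genes were higher. With 1 library left out at a time, genes higher numbered 1193 to 1540 and genes lower 1532 to 1888, ER genes higher 2 to 3 and ER genes lower 7 to 12. With total counts the sign turned for Hspa5 (0.0060), Sec61a1 (0.035) and Derl2 (0.036), and with no filter for Sec61a1 (0.0023) and Derl2 (0.0020). In libraries 4 and 5 alone it turned for Hspa5 (0.029), Sec61a1 (0.083), Edem1 (0.089), Edem2 (-0.0061), Atf6 (0.069) and Ddit3 (0.41), in libraries 1 to 3 alone for Derl2 (0.0502), and without both libraries numbered 3 for Hspa5 (0.0402), Sec61a1 (0.0069) and Atf6 (0.029). With single libraries left out it turned for Hspa5 (-0.16 to 0.092), Hsp90b1 (-0.087 to 0.0014), Sec61a1 (-0.045 to 0.072), Syvn1 (-0.031 to 0.13), Derl2 (-0.055 to 0.029), Atf6 (-0.0995 to 0.022), Atf4 (-0.10 to 0.26) and Ddit3 (-0.44 to 0.17). None of these genes passed in the fit reported, and the cause was not tested. Depth limits Fkbp11, at 26 counts or fewer in every library.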
